A study of Arabidopsis thaliana with 18 samples.

Results

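The cytochrome P450 genes that could be named on the arrays of this study numbered 37, each with a probe set of its own among the 22746 probe sets tested. RefSeq lists 236 Arabidopsis genes under a CYP symbol, so the larger share of the family was not analysed here. A probe set was taken when it was given to a single gene whose symbol is CYP followed by a family number and a subfamily letter. The platform annotation named 23 of the genes, among them 19 of the CYP71B subfamily together with CYP51G2, CYP78A9, CYP84A4 and CYP79A2. The other 14 genes, from 11 families, were named only by a supplementary table of the study and are described apart. That table is sorted by the change in the wild type, and only its upper rows, the highest changes in the wild type, were used here for names. All 37 were matched to a RefSeq locus, and 2 of them, CYP71B27 and CYP51G2, are transcribed pseudogenes there.

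RNA came from systemic leaves of Arabidopsis thaliana plants that were 4 weeks old and had 3 lower leaves infiltrated with Pseudomonas syringae pv. maculicola ES4326 (Psm, OD600 of 0.002) in 10 mM MgCl2 or with 10 mM MgCl2 alone, and was collected after 2 days. The plants were lecrk-VI.2-2, mutated in the gene of a lectin receptor kinase (LecRK-VI.2), bak1-5, mutated in the coreceptor kinase BAK1 and described by the study as dominant-negative, and the wild type (WT) Col-0, and no other allele or transgene was stated for any of them. Each of the 6 groups of genotype and treatment had 3 ATH1 arrays, labelled as biological replicates, and each RNA sample pooled 12 plants. Whether the replicates were grown at separate times is not given in the sources used here, so the tests measure the spread between these pooled samples. The comparison asks which genes changed in leaves that were not themselves infected, the setting of systemic acquired resistance (SAR), and whether the changes differed between either mutant and WT.

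Cytochrome P450 enzymes are heme proteins, most of them held in the membrane of the endoplasmic reticulum, that use electrons passed from NADPH by a reductase to insert an oxygen atom into a substrate. In Arabidopsis they make and modify glucosinolates and camalexin, cuticular lipids, sterols and phenylpropanoids, and they build or inactivate hormones such as jasmonate, abscisic acid and strigolactones. The CYP71B subfamily is large, much of it sits in a tandem run on chromosome 3, and the substrates of most of its members are not established.

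Signals are log2 values, and a change is the mean of the Psm arrays minus that of the MgCl2 arrays of the same genotype. Median signals of the 18 arrays ran from 4.45 to 4.59. The lowest median was that of bak1-5 Psm replicate 3, which had 18.2% of probe sets at a signal of 6 or more and is not among the arrays called weak below. The lecrk-VI.2-2 MgCl2 replicate 2 and Psm replicate 3 arrays had 16.0% and 16.8% of probe sets at a signal of 6 or more, against 18.2% to 19.6% on the other arrays, and they are called the weak arrays here. The median SD between replicates was 0.126 (Psm) and 0.140 (MgCl2) in lecrk-VI.2-2, 0.123 and 0.093 in bak1-5, and 0.086 and 0.087 in WT. The leaf marker RCA, the activase of Rubisco and the only one of 20 leaf markers named here, read 12.4 to 12.8 on all arrays, while the root markers EXPA7 and EXPA18 and the pollen markers ANX1 and ANX2 read 4.55 or less. The SAR marker PR1 read 6.19 to 6.47 after Psm and 5.79 to 6.20 after MgCl2 in lecrk-VI.2-2, 7.23 to 7.95 and 5.75 to 6.02 in bak1-5, and 9.52 to 9.80 and 5.80 to 5.92 in WT. The probe set of LecRK-VI.2 was dim in every genotype, at 5.45 to 5.68 on the lecrk-VI.2-2 arrays and 5.44 to 5.91 on the WT arrays, so it does not check that label.

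Among the 23 P450 genes named by the platform, 6 rose after Psm in some genotype and none fell. CYP71B23, CYP71B24, CYP71B37 and CYP71B6 rose in WT, and CYP71B23, CYP71B24, CYP71B28 and CYP78A9 rose in bak1-5. In lecrk-VI.2-2 no member was called. The largest of these changes was that of CYP71B23 in WT, at 1.51 on the log2 scale (SE 0.16). A change was called when its q, the limma p-value adjusted by the Benjamini-Hochberg approach over all 22746 probe sets, was 0.05 or less. In bulk leaf RNA, fewer cells of a type and less RNA per cell cannot be told apart.

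The count of members called higher in lecrk-VI.2-2 by limma was 0 of 23, where 0.607% of all probe sets were higher, and 0 of 23 were lower, where 0.484% were. At an unadjusted p of 0.05 or less, 2 members were higher and 0 lower there, where 9.22% of all probe sets passed in either direction. In bak1-5 4 of 23 (17.4%) were higher and 0 lower, against 4.08% and 3.01% of all probe sets. At the unadjusted level 6 were higher and 2 lower in bak1-5, where 20.2% of all probe sets passed in either direction. In WT 4 of 23 (17.4%) were higher and 0 lower, against 7.36% and 5.54% of all probe sets. The WT counts at the unadjusted level were again 4 and 0 (17.4%), below the 22.9% of all probe sets that passed in either direction. The median change of the 23 members was 0.07 in lecrk-VI.2-2, 0.06 in bak1-5 and -0.01 in WT, beside -0.00, -0.04 and -0.04 for all probe sets. The larger spread between the lecrk-VI.2-2 arrays stands beside its count of 0, and its part in that count was not tested. With both weak arrays left out, an alternative chosen after seeing the data, the counts called higher were 0, 5 and 4 in the same order. Over all probe sets the numbers called higher were 120, 1454 and 2117 in that fit, against 138, 929 and 1674 in the main fit. All 23 probe sets were dim, with the highest group mean between 3.28 and 5.88, so none of these genes was shown to lie above background in every group. A change of a dim probe set may understate the change of its RNA, which was not measured here.

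**Figure D1:**
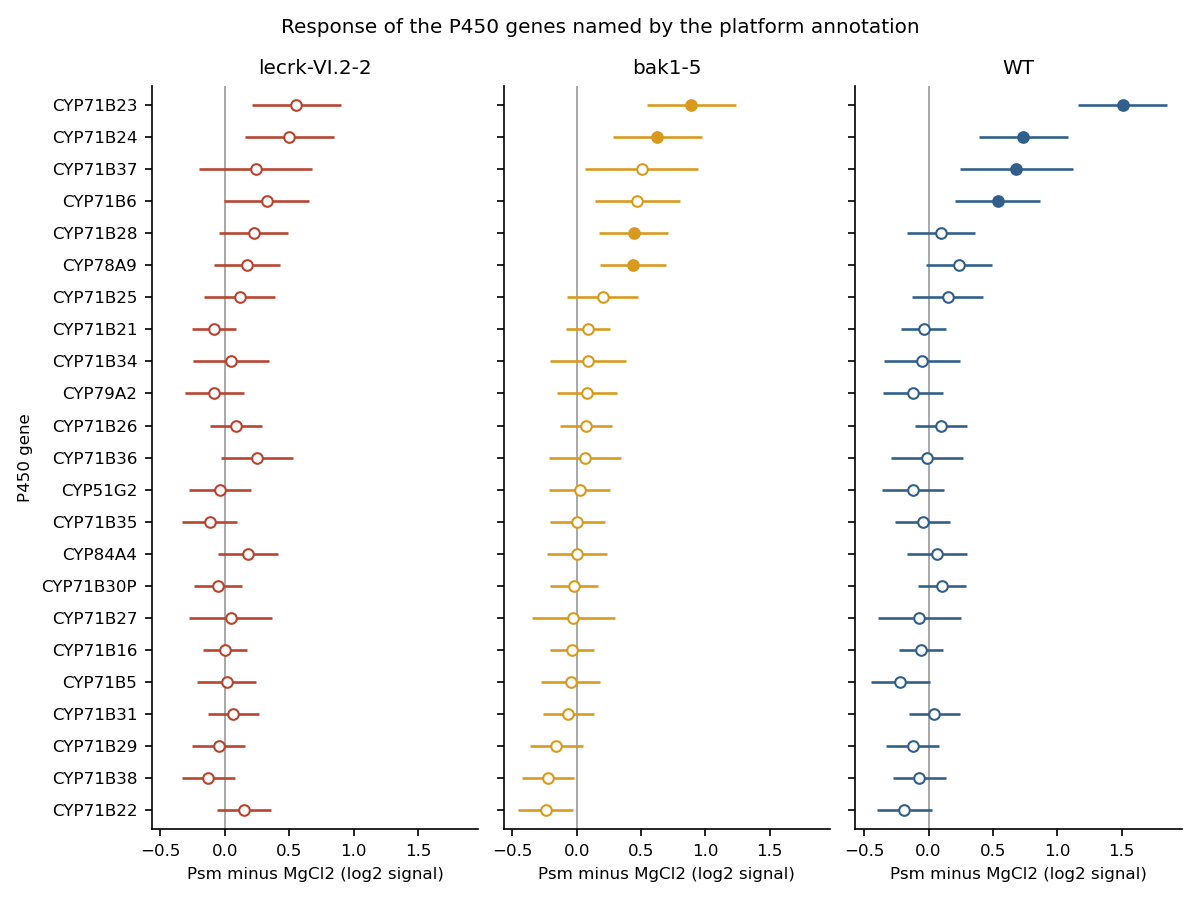
Change of each of the 23 P450 genes named by the platform (Psm minus MgCl2, log2 signal, horizontal axis) in lecrk-VI.2-2, bak1-5 and WT, with 95% confidence intervals from the limma fit; filled points have a q of 0.05 or less and open points do not. Points are filled for 0 genes in lecrk-VI.2-2 and for 4 genes in each of bak1-5 and WT, and all filled points lie right of 0.

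CYP71B23 (AT3G26210) had the largest change of the 23 genes in bak1-5 and WT. CYP71B23 read 3.97, 4.22 and 3.99 on the lecrk-VI.2-2 Psm arrays, against 3.65, 3.47 and 3.4 after MgCl2. In bak1-5 its signals were 4.88, 4.34 and 4.13 after Psm, against 3.53, 3.49 and 3.66 after MgCl2. In WT they were 4.80, 4.81 and 5.41 after Psm, against 3.51, 3.46 and 3.54 after MgCl2. In each genotype all Psm arrays of CYP71B23 lay above all MgCl2 arrays, and the MgCl2 arrays of the 3 genotypes overlapped. The change of CYP71B23 was 0.56 in lecrk-VI.2-2 (95% interval 0.21 to 0.90, limma q = 0.152, not called), 0.89 in bak1-5 (0.54 to 1.24, q = 0.0020) and 1.51 in WT (1.16 to 1.85, q = 4.25e-06), a 2.84-fold increase in WT. The calls of CYP71B23 in bak1-5 and WT held under all 24 alternative fits run for it, but the bak1-5 change, 1.85-fold, was below 2-fold.

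CYP71B24 (AT3G26230), its neighbour beyond CYP71B3, read 5.62, 5.70 and 5.48 after Psm in lecrk-VI.2-2, against 5.17, 4.70 and 5.42 after MgCl2. In bak1-5 CYP71B24 read 5.86, 5.79 and 5.59 after Psm, against 5.29, 5.09 and 4.99 after MgCl2. In WT it read 5.52, 6.15 and 5.92 after Psm, against 5.18, 5.24 and 4.95 after MgCl2. Psm and MgCl2 arrays of CYP71B24 did not overlap in any genotype, although the gap in lecrk-VI.2-2 was narrow. Its changes were 0.50 in lecrk-VI.2-2 (0.15 to 0.84, limma q = 0.220), 0.63 in bak1-5 (0.28 to 0.97, q = 0.0253) and 0.74 in WT (0.39 to 1.08, q = 0.0042). The WT call held under all 24 alternative fits, at a 1.67-fold change. The bak1-5 call was lost without bak1-5 MgCl2 replicate 2 or 3 (q = 0.0852 and 0.111) and without bak1-5 Psm replicate 1 or 2 (q = 0.0874 and 0.0822).

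CYP71B37 (AT3G26330) and CYP71B6 (AT2G24180), which turns indole-3-acetonitrile into indole-3-carboxylic acid, were called in WT alone, and no difference from WT was called for either gene. CYP71B37 read 3.60, 4.23 and 3.47 after Psm in lecrk-VI.2-2, against 3.54, 3.47 and 3.57 after MgCl2. In bak1-5 it read 4.25, 4.09 and 3.43 after Psm, against 3.41, 3.27 and 3.57 after MgCl2. The WT signals were 3.88, 3.95 and 4.59 after Psm, against 3.46, 3.38 and 3.54 after MgCl2. Only in WT did the Psm arrays of CYP71B37 all lie above the MgCl2 arrays, and 1 Psm array was well above the others there. Its changes were 0.24 in lecrk-VI.2-2 (limma q = 0.859), 0.50 in bak1-5 (q = 0.177) and 0.68 in WT (q = 0.0360). The WT call of CYP71B37 was lost without WT Psm replicate 3 (change 0.46, q = 0.233) and without WT MgCl2 replicate 1, 2 or 3 (q = 0.0897, 0.118 and 0.0688). It was also lost with the intensity trend and robust prior (q = 0.0610) and with the replicate block (q = 0.0535), at an equal change of 0.68.

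CYP71B6 read 5.31, 5.56 and 6.0 after Psm in lecrk-VI.2-2, against 5.46, 5.42 and 5.03 after MgCl2. In bak1-5 CYP71B6 read 5.64, 5.76 and 6.10 after Psm, against 5.39, 5.39 and 5.30 after MgCl2. In WT it read 5.96, 5.76 and 5.90 after Psm, against 5.46, 5.44 and 5.11 after MgCl2. The arrays of CYP71B6 overlapped in lecrk-VI.2-2 and stood apart in bak1-5 and WT. The changes were 0.32 in lecrk-VI.2-2 (limma q = 0.561), 0.47 in bak1-5 (q = 0.0838) and 0.54 in WT (q = 0.0284). The CYP71B6 call was lost without WT MgCl2 replicate 3 (change 0.42, q = 0.153), WT Psm replicate 1 (q = 0.114) or WT Psm replicate 3 (q = 0.0885).

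CYP71B28 (AT1G13090) and CYP78A9 (AT3G61880), which promotes the growth of seeds and fruits, were called in bak1-5. CYP71B28 read 5.14, 4.71 and 4.60 after Psm in lecrk-VI.2-2, against 4.77, 4.41 and 4.60 after MgCl2. In bak1-5 it read 4.99, 4.97 and 4.77 after Psm, against 4.40, 4.35 and 4.65 after MgCl2. On the WT arrays its signals were 4.84, 4.86 and 4.72 after Psm, against 4.72, 4.64 and 4.78 after MgCl2. The CYP71B28 arrays were apart in bak1-5 only. Its changes were 0.22 in lecrk-VI.2-2 (limma q = 0.676), 0.44 in bak1-5 (q = 0.0403) and 0.09 in WT (q = 0.749), and the difference between bak1-5 and WT, 0.35 (-0.03 to 0.72), was not called (q = 0.610). The bak1-5 call was lost without any of 8 arrays, namely bak1-5 MgCl2 replicate 1 or 2, bak1-5 Psm replicate 1 or 2, WT MgCl2 replicate 1 or 2 and WT Psm replicate 2 or 3, with a highest q of 0.161.

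CYP78A9 read 5.36, 5.57 and 5.06 after Psm in lecrk-VI.2-2, against 5.31, 5.04 and 5.12 after MgCl2. In bak1-5 CYP78A9 read 5.75, 5.62 and 5.54 after Psm, against 4.99, 5.33 and 5.26 after MgCl2. In WT it read 5.74, 5.67 and 5.67 after Psm, against 5.55, 5.54 and 5.27 after MgCl2. Psm arrays of CYP78A9 lay above MgCl2 arrays in bak1-5 and WT. The changes were 0.17 in lecrk-VI.2-2 (limma q = 0.793), 0.44 in bak1-5 (q = 0.0356) and 0.24 in WT (q = 0.267). The bak1-5 call was lost without bak1-5 MgCl2 replicate 1 (change 0.34, q = 0.168) or replicate 3 (q = 0.0671) and without bak1-5 Psm replicate 1 (q = 0.122) or replicate 2 (q = 0.0835).

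**Figure D2:**
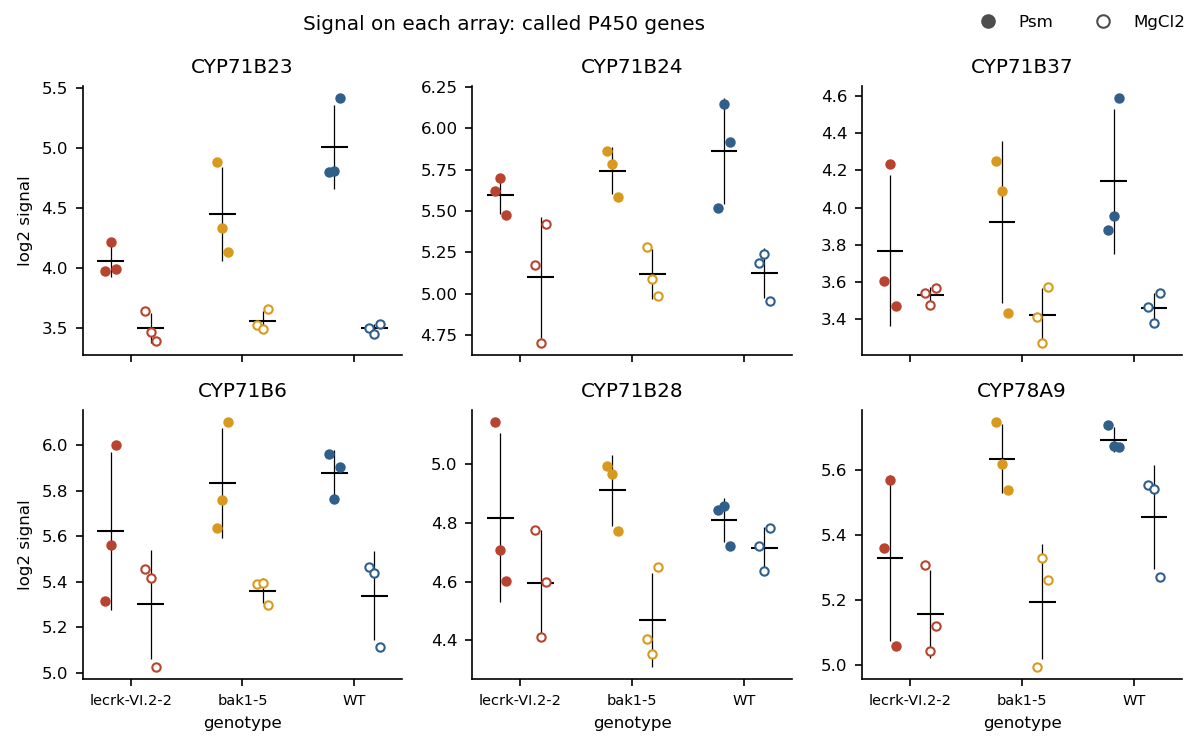
Signal on each array (log2, vertical axis) of the 6 called P450 genes in lecrk-VI.2-2, bak1-5 and WT, with Psm filled and MgCl2 open; bars are the mean and the SD of 3 arrays. CYP71B23 shows Psm arrays above MgCl2 arrays in every genotype, with WT at 4.80 to 5.41 after Psm.

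The responses were next compared between each mutant and WT by the interaction term of the fit. No platform-named member was called by limma. For lecrk-VI.2-2 minus WT, 0 of 23 were higher and 0 lower, against 0.259% and 1.11% of all probe sets. At an unadjusted p of 0.05 or less 1 was higher and 1 lower, where 10.3% of all probe sets passed in either direction. For bak1-5 minus WT, 0 of 23 were higher and 0 lower, against 0.308% and 1.07%. There 0 were higher and 1 lower at the unadjusted level, which 9.28% of all probe sets passed. CYP71B23 came nearest, with a response lower by 0.95 in lecrk-VI.2-2 than in WT (interval of the difference -1.44 to -0.46, q = 0.0502) and a difference of -0.62 in bak1-5 (-1.11 to -0.13, q = 0.302). The first of these differences passed the limma threshold in 9 of 24 alternative fits. It passed with only the arrays compared (q = 0.0410), an intensity trend and robust prior (q = 0.0448), array weights (q = 0.0110) and cyclic loess (q = 0.0260). It also passed without any of 5 single arrays, with q from 0.0192 to 0.0459. These were WT Psm replicate 2, bak1-5 Psm replicate 1 or 3, lecrk-VI.2-2 MgCl2 replicate 2 and lecrk-VI.2-2 Psm replicate 2. The difference was not called in the other fits, among them the replicate block and both weak arrays left out. For CYP71B24 the intervals of the differences were -0.73 to 0.25 (lecrk-VI.2-2 minus WT) and -0.60 to 0.38 (bak1-5 minus WT), so equal responses and clear differences in either direction were both within them.

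After MgCl2 alone, no platform-named P450 gene was called between genotypes. In lecrk-VI.2-2 0 of 23 were higher and 0 lower than in WT, where 0% and 0% of all probe sets were called. An unadjusted p of 0.05 was passed by 0 higher and 1 lower, and by 4.34% of all probe sets. In bak1-5 0 of 23 were higher and 0 lower, against 0.0528% and 0.0044%. Again 0 and 1 passed the unadjusted level, as did 4.01% of all probe sets. The member below WT was CYP78A9 both times, by -0.30 in lecrk-VI.2-2 and -0.26 in bak1-5. These comparisons share the WT MgCl2 arrays, whose CYP78A9 signals were 5.55, 5.54 and 5.27.

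The remaining 17 platform-named P450 genes were called in no comparison. Their changes ran from -0.13 to 0.25 in lecrk-VI.2-2, -0.24 to 0.20 in bak1-5 and -0.22 to 0.15 in WT, with medians of 0.01, 0.00 and -0.05. CYP79A2, which makes phenylacetaldoxime for benzylglucosinolate, changed by -0.08, 0.08 and -0.12 in lecrk-VI.2-2, bak1-5 and WT, and no q was below 0.593. CYP84A4, an enzyme of arabidopyrone synthesis, changed by 0.18, 0.00 and 0.07 in the same order. CYP71B31, which oxidizes linalool in flowers, changed by 0.07, -0.06 and 0.05. CYP51G2, a pseudogene related to the sterol demethylase CYP51G1, changed by -0.04, 0.02 and -0.12, and CYP71B26 changed by 0.09, 0.07 and 0.10. The 95% intervals of these 5 genes all included 0 and reached from -0.36 (CYP51G2 in WT) to 0.41 (CYP84A4 in lecrk-VI.2-2). CYP71B22 and CYP71B38 had the lowest bak1-5 changes, -0.24 (limma q = 0.179) and -0.22 (q = 0.201).

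RefSeq places 25 genes from CYP71B16 to CYP71B37 on chromosome 3, of which 18 are CYP71B genes and 11 had a value here, and 3 of the 11 were called higher in WT, where 7.36% of all probe sets were. These 3 are among the 4 genes already counted in WT, and no test of position was made. CYP71B22, the CYP71B gene before CYP71B23, changed by 0.15 in lecrk-VI.2-2, -0.24 in bak1-5 and -0.19 in WT. CYP71B36, the CYP71B gene before CYP71B37, changed by 0.25, 0.06 and -0.01 in that order. CYP71B25, next after CYP71B24 among the CYP71B genes, changed by 0.12, 0.20 and 0.15, while CYP71B16 and CYP71B35 lay within 0.12 of 0 in every genotype. CYP71B27, CYP71B28 and CYP71B29 lie in another run on chromosome 1, together with CYP71B2, and of these 3 only CYP71B28 was called. In the run of CYP71B5, CYP71B30P and CYP71B31 on chromosome 3 none was called. Whether the probe sets of such close relatives also detect one another was not tested.

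**Figure D3:**
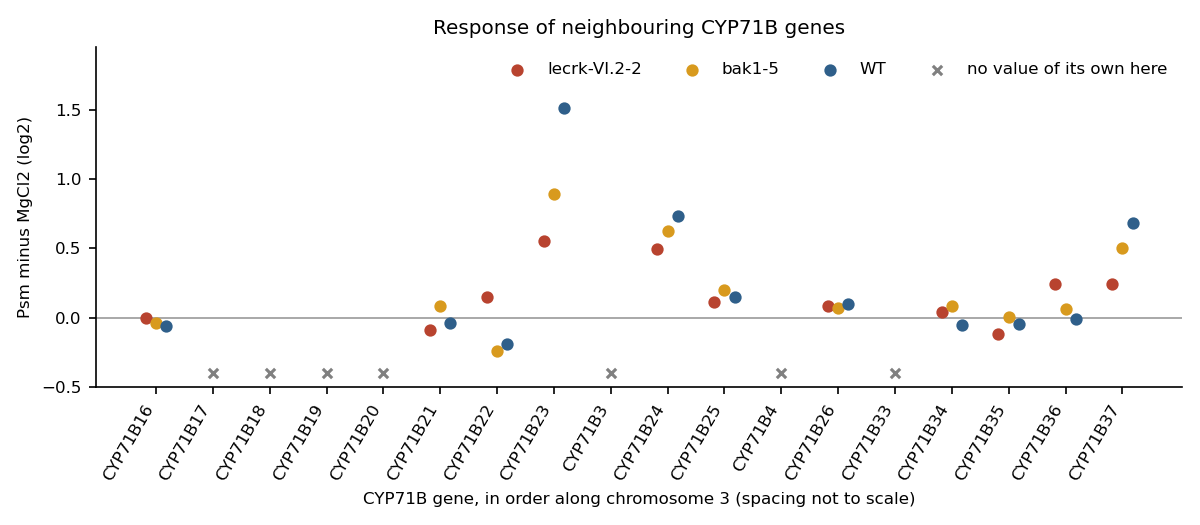
Change (Psm minus MgCl2, log2 signal, vertical axis) of the CYP71B genes in RefSeq order along chromosome 3 in lecrk-VI.2-2, bak1-5 and WT, with crosses for genes without a value of their own. CYP71B23, CYP71B24 and CYP71B37 lie above the rest in bak1-5 and WT, and CYP71B22 to the left of CYP71B23 lies below 0 in both.

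Of the 14 P450 genes named only by the table, 2 rose in lecrk-VI.2-2, 8 rose in bak1-5 and 2 fell in bak1-5. CYP83B1 and CYP72A8 were the members that rose in both mutants, and CYP94C1 and CYP707A3 fell in bak1-5. Only rows with the highest WT changes were used to name these 14 genes, so their WT changes, and any difference from WT, are given as a description with no test, and P450 genes further down that table were not analysed here. All 14 had WT changes above 0, as that choice fixes, from 0.34 (CYP707A1) to 2.23 (CYP83B1), with a median of 0.98. In lecrk-VI.2-2 the changes ran from -0.17 to 1.33 with a median of 0.22, and limma called 2 of 14 (14.3%) higher and 0 lower, against 0.607% and 0.484% of all probe sets. At an unadjusted p of 0.05 or less 4 were higher and 0 lower, where 9.22% of all probe sets passed in either direction. In bak1-5 they ran from -0.70 to 1.55 with a median of 0.48, and 8 of 14 (57.1%) were called higher and 2 (14.3%) lower, against 4.08% and 3.01%. Since the 14 genes were reached through their WT change, nothing is read from these shares against those of all probe sets or of the platform-named genes. The bak1-5 change exceeded the lecrk-VI.2-2 change for 11 of the 14 genes, and for 13 of the 23 platform-named genes. The share over all probe sets was not counted, and no order of the genotypes is read from these numbers. With both weak arrays left out the counts of called genes were the same, 2 higher in lecrk-VI.2-2, and 8 higher and 2 lower in bak1-5. Over all probe sets 120 were higher in lecrk-VI.2-2 in that fit, and 1454 were higher and 1154 lower in bak1-5. In 5 of the 14 the highest group mean reached a signal of 6 (CYP83B1, CYP79B3, CYP72A8, CYP707A3 and CYP89A2), and the other 9 were dim.

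**Figure D4:**
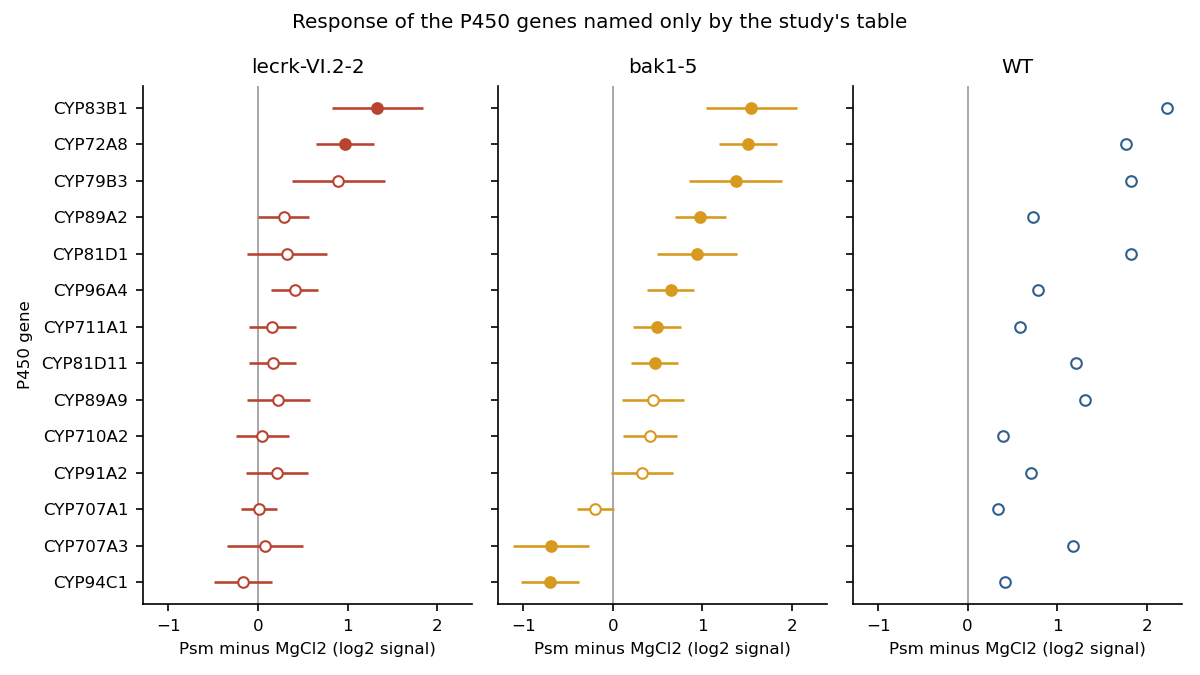
Change of the 14 P450 genes named only by the table (Psm minus MgCl2, log2 signal, horizontal axis) in lecrk-VI.2-2, bak1-5 and WT; lines are 95% confidence intervals and filled points have a q of 0.05 or less. WT points are open and without intervals because they were not tested; 2 points are filled in lecrk-VI.2-2 and 10 in bak1-5, of which CYP94C1 and CYP707A3 lie left of 0.

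The indolic pathway was represented by 4 of its 11 listed P450 genes. CYP79B3 (AT2G22330) converts tryptophan to indole-3-acetaldoxime, CYP83B1 (AT4G31500) passes this compound into indole glucosinolates, and CYP91A2, also called CYP81F1, modifies the indole ring of these glucosinolates. CYP83B1 read 9.18, 9.86 and 9.02 after Psm in lecrk-VI.2-2, against 8.12, 7.55 and 8.40 after MgCl2. In bak1-5 it read 9.63, 10.09 and 9.42 after Psm, against 8.34, 8.21 and 7.95 after MgCl2. In WT CYP83B1 read 10.61, 10.01 and 10.27 after Psm, against 8.06, 8.41 and 7.75 after MgCl2. The treatments were apart in every genotype, and the MgCl2 arrays of the genotypes overlapped. CYP83B1 rose by 1.33 in lecrk-VI.2-2 (0.83 to 1.84, 2.52-fold, limma q = 0.0082) and by 1.55 in bak1-5 (1.04 to 2.05, 2.92-fold, q = 4.1e-04), beside 2.23 in WT. The lecrk-VI.2-2 call of CYP83B1 was lost without lecrk-VI.2-2 Psm replicate 2 (1.08, limma q = 0.0575), its highest array. It was also lost when only the arrays of that genotype were fitted (q = 0.131). The bak1-5 call of CYP83B1 held under all 25 alternative fits.

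CYP79B3 read 7.63, 8.24 and 7.40 after Psm in lecrk-VI.2-2, against 6.92, 6.53 and 7.14 after MgCl2. In bak1-5 CYP79B3 read 8.30, 8.65 and 8.17 after Psm, against 7.26, 6.98 and 6.77 after MgCl2. WT plants gave 9.19, 8.49 and 8.74 after Psm, against 6.95, 7.49 and 6.51 after MgCl2. No arrays of CYP79B3 overlapped between the treatments of a genotype. Its change was 0.89 in lecrk-VI.2-2 (0.38 to 1.41, limma q = 0.110, not called) and 1.37 in bak1-5 (0.85 to 1.89, q = 0.0016), beside 1.83 in WT. The bak1-5 call of CYP79B3 was kept under all 25 alternative fits. CYP91A2 changed by 0.21 in lecrk-VI.2-2 (q = 0.836) and 0.32 in bak1-5 (q = 0.288), beside 0.71 in WT. With CYP71B6, 1 of the 4 indolic P450 genes rose in lecrk-VI.2-2, where 0.607% of all probe sets did, and 2 rose in bak1-5, where 4.08% did. The medians of the 4 were 0.61 and 0.92, beside 1.27 in WT. All but CYP71B6 were named only through their WT change, so these counts are a description.

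Other genes of the indolic pathway, which supply tryptophan, act after these P450s or regulate or export their products, were counted from a list of 23, of which 9 were named here, and UGT74B1 alone of these was named by the platform and so could be tested in WT. None of the 9 was called in lecrk-VI.2-2 by limma (q from 0.0738 upward), with a median change of 0.63. In bak1-5 3 rose, with a median of 0.86 over the 9. Beside these counts, 0.607% of all probe sets were higher in lecrk-VI.2-2 and 4.08% in bak1-5, and nothing is read from the comparison because all of the 9 but UGT74B1 were named only by the table. Those that rose in bak1-5 by limma were TSB2, SOT16 and PEN3. TSB2, a tryptophan synthase subunit, changed by 0.96 there (q = 0.0045). SOT16, a sulfotransferase of indole glucosinolate synthesis, changed by 1.27 (q = 0.0051), and PEN3, a transporter of the plasma membrane, by 0.99 (q = 0.0015). UGT74B1, a glucosyltransferase of glucosinolate synthesis, changed by 0.54 in lecrk-VI.2-2 (q = 0.170) and 0.53 in bak1-5 (q = 0.0631) and rose by 0.63 in WT (q = 0.0144).

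CYP72A8 (AT3G14620) and CYP89A2 (AT1G64900) gave the smallest intervals among the genes that rose by more than 0.9 in bak1-5. CYP72A8 read 6.72, 6.78 and 6.21 after Psm in lecrk-VI.2-2, against 5.57, 5.40 and 5.81 after MgCl2. In bak1-5 it read 7.17, 7.28 and 7.19 after Psm, against 5.82, 5.52 and 5.77 after MgCl2. In WT CYP72A8 read 7.75, 7.21 and 7.36 after Psm, against 5.49, 5.72 and 5.81 after MgCl2. Its Psm arrays lay above its MgCl2 arrays in every genotype. CYP72A8 rose by 0.97 in lecrk-VI.2-2 (0.65 to 1.3, limma q = 0.0027) and by 1.51 in bak1-5 (1.19 to 1.84, q = 4.1e-06), beside 1.76 in WT. The lecrk-VI.2-2 call was kept when any single array was left out and was lost when only the arrays of that genotype were fitted (q = 0.0952).

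CYP89A2 read 5.68, 5.73 and 5.37 after Psm in lecrk-VI.2-2, against 5.21, 5.37 and 5.34 after MgCl2. In bak1-5 CYP89A2 read 6.23, 6.43 and 6.06 after Psm, against 5.25, 5.23 and 5.32 after MgCl2. In WT it read 6.40, 5.85 and 6.23 after Psm, against 5.54, 5.55 and 5.20 after MgCl2. Its treatments were barely apart in lecrk-VI.2-2 and clearly apart in bak1-5. The change was 0.29 in lecrk-VI.2-2 (limma q = 0.542) and 0.98 in bak1-5 (0.69 to 1.26, q = 1.3e-04), beside 0.73 in WT. The bak1-5 call was kept under all 25 alternative fits, at a 1.97-fold change. CYP89A2 was 1 of 2 genes among the 14 whose bak1-5 change exceeded that of WT, the other being CYP710A2, a sterol desaturase, at 0.41 in bak1-5 (q = 0.0939) and 0.40 in WT.

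CYP81D1 (AT5G36220), CYP81D11 (AT3G28740), CYP96A4 (AT5G52320) and CYP711A1 (AT2G26170) were called higher in bak1-5, and limma called none of these 4 genes in lecrk-VI.2-2. CYP81D1 read 3.92, 4.41 and 3.91 after Psm in lecrk-VI.2-2, against 3.65, 3.77 and 3.87 after MgCl2. Its bak1-5 arrays read 4.62, 5.20 and 4.24 after Psm, against 3.87, 3.64 and 3.75 after MgCl2, and its WT arrays 5.86, 4.94 and 5.55, against 3.53, 3.68 and 3.67. The treatments were apart for CYP81D1 in all genotypes. CYP81D1 rose by 0.94 in bak1-5 (limma q = 0.0103), beside 0.32 in lecrk-VI.2-2 (q = 0.771) and 1.82 in WT, and the call was lost without bak1-5 Psm replicate 2 (0.68, q = 0.0670). CYP81D11, known for its response to xenobiotic compounds, read 4.63, 4.62 and 4.38 after Psm in lecrk-VI.2-2, against 4.31, 4.35 and 4.48 after MgCl2. Its bak1-5 arrays read 4.63, 5.01 and 5.06 after Psm, against 4.61, 4.41 and 4.26 after MgCl2, and its WT arrays 5.75, 5.34 and 5.54, against 4.38, 4.28 and 4.34. CYP81D11 overlapped between treatments in lecrk-VI.2-2 and barely separated in bak1-5. It rose by 0.47 in bak1-5 (q = 0.0269), beside 0.16 in lecrk-VI.2-2 (q = 0.825) and 1.21 in WT. The table gives the symbol CYP81D1 for its locus, and the RefSeq symbol is used here. CYP96A4 read 4.70, 4.93 and 4.77 after Psm in bak1-5, against 4.22, 4.07 and 4.18 after MgCl2. This gene is of the subfamily that holds the alkane hydroxylase of wax synthesis. CYP96A4 rose by 0.64 in bak1-5 (limma q = 0.0028), beside 0.41 in lecrk-VI.2-2 (q = 0.163) and 0.78 in WT. Its bak1-5 call was kept under all 24 alternative fits, at a 1.56-fold change. CYP711A1, the MAX1 enzyme of strigolactone synthesis, rose by 0.49 in bak1-5 (q = 0.0221), beside 0.16 in lecrk-VI.2-2 (q = 0.836) and 0.58 in WT.

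The calls of CYP81D11 and CYP711A1 in bak1-5 depended on single arrays and on the fit. That of CYP81D11 was lost without bak1-5 MgCl2 replicate 2 or 3 (limma q = 0.0874 and 0.137) and bak1-5 Psm replicate 2 or 3 (q = 0.108 and 0.116), and also with array weights (change 0.25, q = 0.0954) and when only the bak1-5 arrays were fitted (q = 0.0601). That of CYP711A1 was lost without bak1-5 MgCl2 replicate 2 or 3 (q = 0.0621 and 0.112) and bak1-5 Psm replicate 1 or 2 (q = 0.114 and 0.0734), and also when only the bak1-5 arrays were fitted (q = 0.0799). CYP89A9, which acts in chlorophyll breakdown, was not called in either mutant, with changes of 0.22 in lecrk-VI.2-2 (q = 0.810) and 0.45 in bak1-5 (q = 0.127), beside 1.31 in WT.

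Among the P450 genes of hormone inactivation, CYP94C1 and CYP707A3 fell in bak1-5. CYP94C1 (AT2G27690) oxidizes jasmonoyl-isoleucine, and CYP707A1 (AT4G19230) and CYP707A3 (AT5G45340) hydroxylate abscisic acid. CYP94C1 read 3.73, 4.15 and 3.75 after Psm in lecrk-VI.2-2, against 3.92, 4.05 and 4.17 after MgCl2. In bak1-5 it read 3.94, 4.00 and 3.63 after Psm, against 4.53, 4.86 and 4.30 after MgCl2. In WT CYP94C1 read 4.32, 4.07 and 4.14 after Psm, against 4.01, 3.77 and 3.48 after MgCl2. All Psm arrays lay below the MgCl2 arrays in bak1-5 and above them in WT, and they overlapped in lecrk-VI.2-2. The change was -0.17 in lecrk-VI.2-2 (limma q = 0.877) and -0.70 in bak1-5 (-1.03 to -0.38, q = 0.0080), beside 0.42 in WT, and the bak1-5 call was lost without bak1-5 MgCl2 replicate 2 (-0.56, q = 0.0593). After MgCl2 alone, CYP94C1 was 0.81 higher in bak1-5 than in WT, a value given without a test.

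CYP707A3 read 5.14, 5.48 and 5.29 after Psm in lecrk-VI.2-2, against 5.04, 5.06 and 5.56 after MgCl2. In bak1-5 CYP707A3 read 5.26, 5.45 and 5.50 after Psm, against 6.38, 6.48 and 5.43 after MgCl2. In WT it read 6.36, 6.57 and 6.52 after Psm, against 5.27, 5.49 and 5.18 after MgCl2. In bak1-5 a pair of MgCl2 arrays was near the WT Psm level and the third lay within the Psm arrays. The change of CYP707A3 was 0.08 in lecrk-VI.2-2 (limma q = 0.979) and -0.69 in bak1-5 (-1.12 to -0.27, q = 0.0455), beside 1.17 in WT. The bak1-5 call was lost under 15 of 25 alternatives, among them each removal of a WT array (q of 0.0517 to 0.0590), of bak1-5 MgCl2 replicate 1 or 2 (-0.55 and -0.50, q = 0.192 and 0.227), of bak1-5 Psm replicate 1, 2 or 3 (q = 0.134, 0.0955 and 0.0752) or of lecrk-VI.2-2 Psm replicate 1 (q = 0.0529). Without bak1-5 MgCl2 replicate 3 the change of CYP707A3 was -1.03 (q = 3.66e-04). CYP707A1 read 4.74, 4.67 and 4.64 after Psm in bak1-5, against 4.74, 4.94 and 4.96 after MgCl2, and 5.28, 5.05 and 4.92 in WT, against 4.82, 4.80 and 4.63. It changed by 0.01 in lecrk-VI.2-2 (q = 0.995) and -0.20 in bak1-5 (q = 0.271), beside 0.34 in WT.

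**Figure D5:**
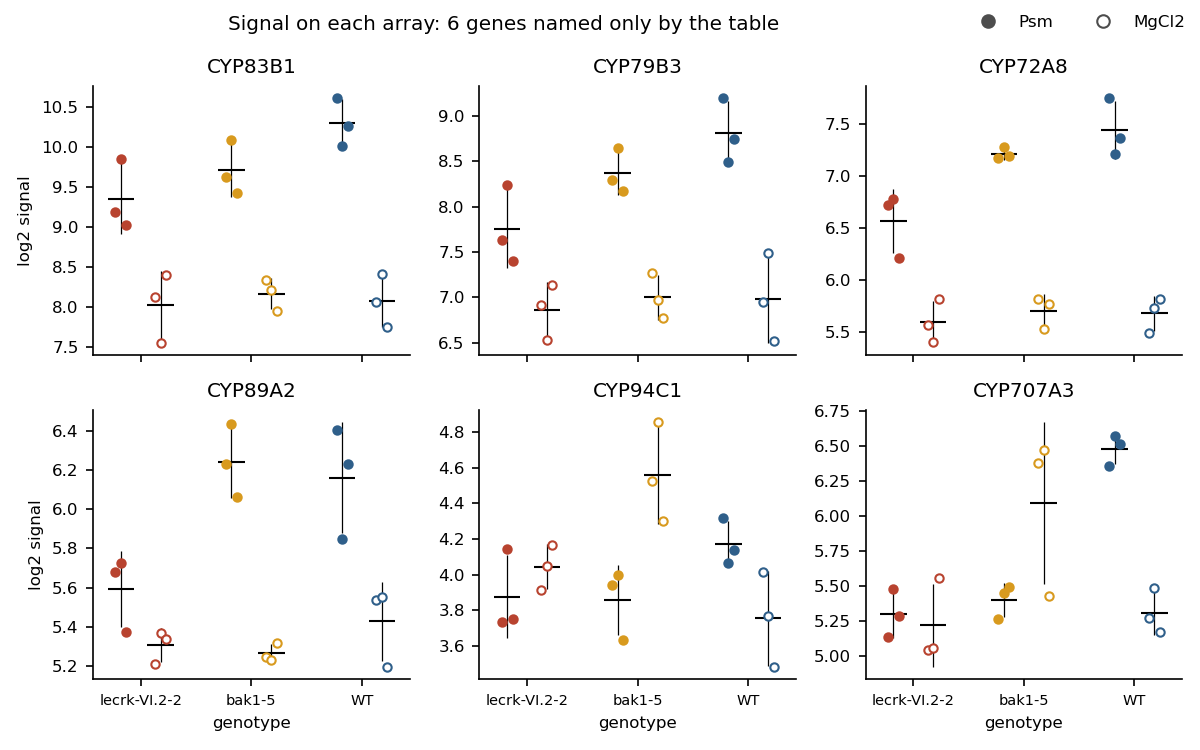
Signal on each array (log2, vertical axis) of 6 P450 genes named only by the table in lecrk-VI.2-2, bak1-5 and WT, with Psm filled and MgCl2 open; bars are the mean and the SD of 3 arrays. CYP83B1, CYP79B3 and CYP72A8 show higher Psm arrays in every genotype, while CYP94C1 and CYP707A3 show high bak1-5 MgCl2 arrays.

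Among the 14 genes the Psm arrays of a genotype differed in the same way. The lecrk-VI.2-2 Psm replicate 2 array was the highest for 12 of 14 genes, and the weak Psm replicate 3 array was the lowest for 10. In bak1-5 Psm replicate 2 was the highest for 8 and Psm replicate 3 the lowest for 10, and in WT Psm replicate 1 was the highest for 12 and Psm replicate 2 the lowest for 11. Among the 23 platform-named genes, Psm replicate 1 was the highest for 11 and Psm replicate 2 for 8, in lecrk-VI.2-2 and in bak1-5 alike. Such counts were not made over all probe sets. Psm replicate 3 was the lowest for 13 of the 23 in lecrk-VI.2-2, 13 in bak1-5 and 6 in WT. Leaving out lecrk-VI.2-2 Psm replicate 2 left 1 of the 14 genes called higher in lecrk-VI.2-2, against 2 in the main fit. Over all probe sets the number called higher there was 56 in that fit, against 138 in the main fit. The group also has fewer arrays then, so the part of that array in the calls was not tested.

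Of P450 genes that carry other symbols, 2 of 31 listed symbols could be placed, both by the table alone. AOS, the allene oxide synthase of jasmonate synthesis, read 8.03, 10.00 and 8.10 after Psm in lecrk-VI.2-2, against 7.18, 6.88 and 7.65 after MgCl2. In bak1-5 AOS read 9.98, 10.56 and 9.08 after Psm, against 7.63, 7.51 and 7.19 after MgCl2, and in WT 11.56, 10.61 and 10.74 after Psm, against 7.73, 7.85 and 7.31 after MgCl2. The lecrk-VI.2-2 Psm replicate 2 array again stood above the other 2. AOS changed by 1.47 in lecrk-VI.2-2 (limma q = 0.128) and rose by 2.43 in bak1-5 (q = 0.0011), beside 3.34 in WT. HPL1, named for hydroperoxide lyase, changed by 0.59 in lecrk-VI.2-2 (limma q = 0.414) and rose by 0.83 in bak1-5 (q = 0.0472), beside 1.62 in WT. Of 13 listed redox partners only CB5-C, a cytochrome b5, was named, with 0.96 in lecrk-VI.2-2 (q = 0.169) and a rise of 1.2 in bak1-5 (q = 0.0166), beside 1.59 in WT.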

How the data were processed

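The deposited log2 values of 18 ATH1 arrays were used as given; per the labels and the study's methods, the authors made them by Robust Multichip Analysis in the affy package (background correction, quantile normalization, summary of each probe set), and no replicate was pooled. Quantile normalization gives all arrays nearly the same distribution, so differences in total RNA are not seen. Arrays carry no depth, and their number limits the precision. The 64 control probe sets of 22810 were left out. All 18 arrays entered a model of group means (limma 3.58.1, R 4.3.3, functions lmFit and eBayes; 12 residual degrees of freedom, 18.03 with the prior). The 7 comparisons were the response to Psm in each genotype, its difference between each mutant and WT, and each mutant against WT after MgCl2. q values were adjusted by the Benjamini-Hochberg approach over 22746 probe sets within each comparison, and 0.05 or less was called.

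Genes were named by the platform annotation, or by matching the 3 changes of a probe set to a single row of the study's supplementary table, used for names only; that table is sorted by the change in WT, and only its upper rows were used here, so genes named this way were selected for a high WT change. Probe sets given to several genes or to conflicting names were left out, and 1 gene that the selection rule excludes is not reported here. The members, gene lists and tests were chosen with earlier results of these data known. Named genes were the called platform-named members, the brightest and the role-list members, every member named only by the table, and list genes by their change in WT. Alternatives were a fit to only the arrays compared, an intensity trend with robust prior, array weights, dim probe sets left out, cyclic loess, the replicate number as a block, stricter thresholds and each array left out. Where alternatives are counted for a single call, the count covers the fits and not the stricter thresholds. The steps were tested on simulated data. Figures were drawn with matplotlib 3.10.9 in Python 3.11.15.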

Additional observations from a re-analysis of the deposited data

Results flagged for a closer look

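CYP94C1 responded to Psm in opposite directions in bak1-5 and WT, with every bak1-5 Psm array below and every WT Psm array above the MgCl2 arrays, and the responses differed by -1.12. For CYP707A1 the bak1-5 Psm arrays also lay below and the WT Psm arrays above the MgCl2 arrays, but a bak1-5 array of each treatment read 4.74 and the bak1-5 change of -0.20 was not called (limma q = 0.271). Its responses differed by -0.53 between bak1-5 and WT. Neither difference was tested, because both genes were named only through their high change in WT, which fixed the direction of that change. CYP94C1 was dim, with a highest group mean of 4.56, and after MgCl2 alone it was 0.81 higher in bak1-5 than in WT.

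CYP71B22 went the other way between lecrk-VI.2-2 and WT. Its Psm arrays read 4.24, 4.09 and 4.01 in lecrk-VI.2-2, against 3.99, 3.96 and 3.94 after MgCl2, and 3.83, 4.03 and 3.91 in WT, against 4.11, 4.12 and 4.1 after MgCl2. The difference of 0.34 was tested by limma and not called (q = 0.379).

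The probe set that the platform gives to both CYP71B19 and CYP71B20 was outside the comparisons, since its signal cannot be assigned to 1 gene. It read 5.98, 6.01 and 5.49 after Psm in lecrk-VI.2-2, against 5.68, 5.18 and 5.69 after MgCl2. In bak1-5 it read 5.85, 6.03 and 5.92 after Psm, against 5.48, 5.50 and 5.28 after MgCl2, and in WT 5.99, 6.29 and 6.52, against 5.55, 5.69 and 5.38. Its change was 0.31 in lecrk-VI.2-2 (limma q = 0.596), 0.52 in bak1-5 (q = 0.0555) and 0.73 in WT (q = 0.0033). The probe set shared by CYP79C2 and AT1G58265 changed by 0.06, 0.03 and -0.09 in the same order, with no q below 0.752.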

How the results depend on the processing

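No direction was reversed. Of 20 called changes of named P450 genes, 8 were kept under every alternative fit and 12 were lost under 1 or more. The stricter thresholds are not counted among these fits. Of the 8, CYP71B24 in WT and CYP71B23, CYP96A4 and CYP89A2 in bak1-5 changed by less than 2-fold. For the 23 platform-named genes, the number called higher in lecrk-VI.2-2 (0) was 1 with array weights (CYP71B24, q = 0.0426). That in bak1-5 (4) was 1 at a q of 0.01 or less and 0 with a fold change of 2 or more, and 1 to 5 without single arrays. That in WT (4) was 2 and 1 under the same limits, and 2 to 4 without single arrays. The number with a lower response in lecrk-VI.2-2 than in WT (0) was 1 with only the arrays compared, the intensity trend with robust prior, array weights or cyclic loess, and 0 to 1 without single arrays. For the 14 genes named only by the table, the number called higher in lecrk-VI.2-2 (2) was 0 with only the arrays compared, 5 with array weights and 1 with a fold change of 2 or more, and 1 to 3 without single arrays. The number called higher in bak1-5 (8) was 4 with dim probe sets left out, 5 at a q of 0.01 or less and 3 with a fold change of 2 or more, and 5 to 8 without single arrays. The number called lower in bak1-5 (2) was 1 with only the arrays compared, dim probe sets left out, cyclic loess, the replicate block or a q of 0.01 or less and 0 with a fold change of 2 or more, and 0 to 2 without single arrays. Over all probe sets, the number called higher in lecrk-VI.2-2 was 138 in the main fit, 26 with only the arrays compared and 506 with array weights. The causes of the changed counts were not tested, except that a stricter limit can only lower a count. Leaving out dim probe sets keeps 5 of the 14 genes and none of the 23, for which it gives no value.

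The replicate numbers were not shown to pair the arrays (correlation of the deviations of same-numbered arrays -0.44 to 0.32, median -0.02 over 45 pairs). As a replicate block they ended the call of CYP71B37 in WT (q = 0.0535) and of CYP707A3 in bak1-5 (q = 0.0512) and no other call of a P450 gene. The largest-variance choice of probe set changed nothing, since each of the 37 genes had 1 probe set. Dim signals limit all 23 platform-named genes, for which small changes may go unseen.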
